A study of Mus musculus with 4 samples.

Results

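The genes described here build the postsynaptic side of the neuromuscular junction: 5 subunits of the muscle acetylcholine receptor (Chrna1, Chrnb1, Chrnd, Chrne and Chrng), the organisers that cluster it (Musk, Lrp4 and Rapsn) and the enzyme that clears its ligand with the collagen tail that anchors it (Ache and Colq). They were taken by gene symbol, 10 of the 32285 genes in the matrices, and no measured value was used to choose them. The measurement is spatial RNA sequencing of tibial muscle from Nse-Bmp4 mice, C57BL/6, 6-8 weeks old, in which the rat neuron-specific enolase promoter drives a Bmp4 cDNA and cardiotoxin injury of the muscle leads to heterotopic ossification, bone formed in soft tissue. There was 1 section per day: uninjured muscle (day 0) and muscle at days 1, 3 and 7 after injury. The labels speak of 3 mixed tibial muscles per group and do not tie them to the section. Every section carried the transgene, and no section of mice without it was analysed here.

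At the junction, nerve-released acetylcholine opens a pentameric channel made of a pair of alpha subunits (Chrna1) with beta (Chrnb1), delta (Chrnd) and a last subunit that changes with age. Fetal, newly formed and denervated muscle uses gamma (Chrng), and innervated adult muscle uses epsilon (Chrne), which only the few nuclei beneath the nerve ending transcribe strongly. Nerve-derived agrin binds Lrp4, which activates the kinase Musk, and Rapsn then holds the receptors in a dense patch. Electrical activity silences receptor genes in the rest of the fibre, and myogenic factors drive them in young myotubes.

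The promoter sequences of the fetal and the adult subunit are shown because the contrast between these 2 genes carries the results that follow. Chrng (ENSMUSG00000026253) lies at chr1:87205811-87211835 and Chrne (ENSMUSG00000014609) at chr11:70614883-70619213 in GRCm38.p6, the assembly that mm10 names. Each window holds the 250 bases before the RefSeq transcription start, 5′ to 3′ on the gene's strand, and Chrna1 (ENSMUSG00000027107, chr2:73563281-73580338), the alpha subunit needed with both, is added as a reference. Capitals mark matches to the E-box CANNTG, the core letters that myogenic factors such as MyoD and myogenin bind, and to the N-box CCGGAA, letters bound by ETS factors and known from synapse-specific genes. Both strands were searched, and no E-box overlapped an N-box.
Chrng, chr1:87205561-87205810, plus strand: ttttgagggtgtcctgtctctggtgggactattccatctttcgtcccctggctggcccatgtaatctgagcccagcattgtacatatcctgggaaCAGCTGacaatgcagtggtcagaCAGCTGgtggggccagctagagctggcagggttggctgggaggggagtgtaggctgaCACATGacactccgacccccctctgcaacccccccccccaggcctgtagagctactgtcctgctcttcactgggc
Chrne, chr11:70619195-70619444, minus strand: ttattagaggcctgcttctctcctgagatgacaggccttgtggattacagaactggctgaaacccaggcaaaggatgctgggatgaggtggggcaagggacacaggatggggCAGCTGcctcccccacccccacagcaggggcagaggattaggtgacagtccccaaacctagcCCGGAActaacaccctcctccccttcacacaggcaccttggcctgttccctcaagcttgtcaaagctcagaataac
Chrna1, chr2:73580339-73580588, minus strand: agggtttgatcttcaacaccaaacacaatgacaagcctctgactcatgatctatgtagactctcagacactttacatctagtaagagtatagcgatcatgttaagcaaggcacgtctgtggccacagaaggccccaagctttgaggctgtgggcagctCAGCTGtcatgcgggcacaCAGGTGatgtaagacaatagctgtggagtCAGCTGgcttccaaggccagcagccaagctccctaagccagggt
The Chrng window held 3 E-boxes, starting 155, 132 and 75 bases before the start, and no N-box. The Chrne window held 1 E-box, at 138 bases, and 1 N-box, at 76 bases before the start; its last bases lie inside the RefSeq span of the gene. Chrna1 had 3 E-boxes and no N-box. Of the 10 genes, 6 had such a window, and the other members matched (Chrnb1, Musk and Ache) held 3, 3 and 1 E-boxes and no N-box. The windows of these genes also reach into the RefSeq spans of the genes. That of Musk, chr4:58285712-58285961, lies mostly inside a span that starts at 58285729. Of all 32851 windows of this length, 12.2% held 3 or more E-boxes, 66.2% held at least 1, and 12.03% held an N-box. A match to 6 letters is a description of the window and not a bound site.

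A section was measured on 2107 (day 0), 2667 (day 1), 3029 (day 3) and 3032 spots (day 7), each a disc of tissue that can hold several cells. Unique molecular identifiers (UMIs, tags that count captured transcripts once) summed to between 16777832 at day 1 and 56113066 at day 3, and the median spot held between 6322 UMIs at day 1 and 21029 at day 0. Of the barcodes, 1341 occurred in all 4 sections, since barcodes mark fixed array positions. Levels are given as UMIs per 1000000 UMIs of the section (CPM), with 95% intervals that cover counting error only. With 1 section a day there was no test, and the day cannot be told apart from the mouse, the plane of the cut or the number of junctions it met. A spot sums over its cells, so fewer cells of a type and less RNA per cell cannot be told apart. The adult myofibre list (12 genes such as Ckm and Acta1) held 24.9%, 13.5%, 8.29% and 14.7% of the UMIs at days 0, 1, 3 and 7, and this shift enters every CPM.

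Chrng stood at 0.889 CPM (95% interval from 0.632 to 1.22) at day 0 and 0.298 CPM (0.0968 to 0.695) at day 1, the latter on 5 UMIs. It reached 24.8 CPM (23.5 to 26.2) at day 3 and 11.5 CPM (10.5 to 12.6) at day 7. The 2 later sections thus lay above both earlier ones, and day 3 was 27.9-fold over day 0 (20.3 to 39.4) while day 7 was 13.0-fold over it (9.36 to 18.5). This was the widest change among the 10 genes at both days. Chrng, the gamma subunit, is the member that adult innervated fibres shut off.

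Chrne was also lower at day 1, but unlike Chrng it was below day 0 at day 3 and higher at day 7 than at day 3. It gave 20.6 CPM (19.3 to 22.0) at day 0, 5.25 CPM (4.21 to 6.46) at day 1, 7.82 CPM (7.11 to 8.59) at day 3 and 23.0 CPM (21.6 to 24.5) at day 7. Its lowest sections were those of days 1 and 3, at 3.92-fold and 2.63-fold below day 0. Scaled to the adult myofibre list in place of the total, the day 3 difference from day 0 turned from -1.40 to 0.19 on the log2 scale. At day 7 Chrne stood within 1.12-fold of day 0, and the sign of that small difference turned under 3 other scalings: edgeR's TMM factors, DESeq2 size factors, and a reduced total without mitochondrial, haemoglobin and adult myofibre genes.

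**Figure D1:**
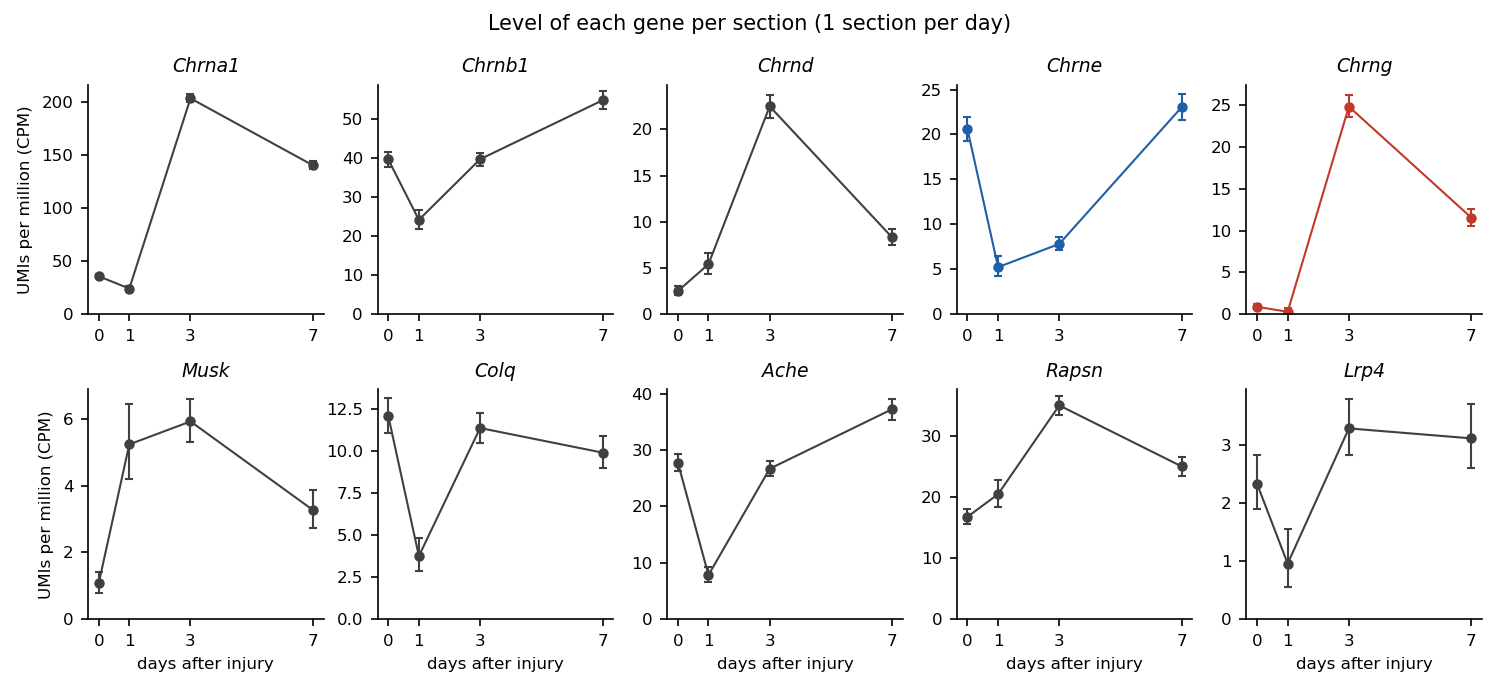
CPM (y axis, starting at 0) of each of the 10 genes against days after injury (x axis), 1 point per section, with 95% counting intervals and lines that only join the points. Chrng (red) peaked at day 3 with 24.8 CPM, where Chrne (blue) was at 7.82 CPM against 20.6 CPM at day 0.

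The ratio of the 2 subunits needs no scaling between sections. Of the UMIs of Chrng and Chrne together, Chrng held 39 of 942 at day 0, which is 4.14% (2.96 to 5.62, Clopper-Pearson), or 8.32% when each spot counted at most 1 UMI of a gene. At day 1 it held 5 of 93, or 5.38% (1.77 to 12.1), an interval that takes in the value of day 0. At day 3 the fetal subunit held 1393 of 1832, or 76.0% (74.0 to 78.0), and at day 7 it held 483 of 1447, or 33.4% (31.0 to 35.9). The intervals of days 3 and 7 overlapped neither each other nor those of days 0 and 1. UMIs tag the ends of transcripts and the capture of 2 genes can differ, so only the change of the share between days is read, not which gene was the more abundant.

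The share also differed between places within a section. Spots were ranked by their share of UMIs from a regenerating myofibre list (Myh3, Myh8, Myl4, Tnnt2, Mymk and Mymx: embryonic and perinatal sarcomere genes and the myoblast fusion genes), and the upper 25% were set against the rest. At day 3 Chrng held 88.1% (86.2 to 89.9) of the 2 subunits' UMIs in the upper 25% and 52.4% (48.4 to 56.4) in the other spots. At day 7 these shares were 52.9% (49.3 to 56.4) and 10.5% (8.29 to 13.1). In uninjured muscle both sets of spots were alike within their intervals, at 4.62% (2.33 to 8.12) and 3.98% (2.66 to 5.70). Ranked by the adult myofibre list, the upper 25% held the lower share, 29.8% (21.6 to 39.1) against 79.1% (77.1 to 81.0) at day 3 and 12.9% (9.13 to 17.4) against 38.1% (35.3 to 41.0) at day 7.

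**Figure D2:**
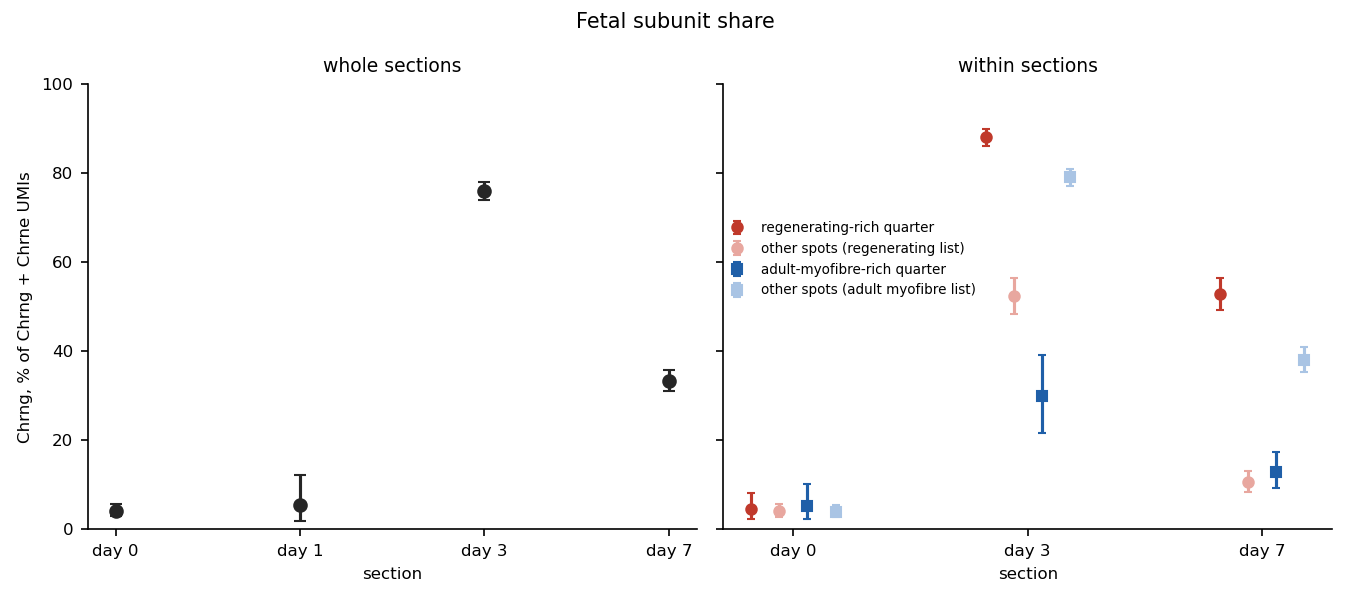
Chrng as a percentage of Chrng plus Chrne UMIs (y axis) in whole sections (left) and in the upper 25% and the other spots by 2 gene lists (right), with 95% Clopper-Pearson intervals. The share was 4.14% in the uninjured section, 76.0% by day 3 and 33.4% in the last section, and within the day 7 section it was 52.9% in spots rich in regenerating myofibre genes and 10.5% in the others.

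Most spots with a UMI of either subunit held only that subunit. At day 0, 31 spots held Chrng alone, 422 held Chrne alone and 8 held both. At day 1 no spot held both, with 5 spots of Chrng and 58 of Chrne. At day 3, 642 spots held Chrng alone, 183 held Chrne alone and 58 held both, and at day 7 these counts were 162, 427 and 86. Under independence 55.7 spots would hold both at day 3 and 42.0 at day 7, so that the 86 spots of day 7 were 2.05 times the expectation. With every spot thinned to 2000 UMIs, 2.28 spots held both at day 7 against 1.58 expected, a ratio of 1.45 whose interval (0.15 to 4.58) takes in 1. At this thinned depth the overlap could not be set apart from independence. Set against other spots of the same depth class with all UMIs, Chrne spots at day 7 held 1.31 times the expected Chrng UMIs (1.12 to 1.52), and Chrng spots held 1.76 times the expected Chrne UMIs (1.52 to 2.02), so that by this measure the overlap exceeded that of spots of like depth.

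The shared subunits did not move together. Chrna1 gave 35.8 CPM at day 0, 24.2 CPM at day 1, 203 CPM at day 3 and 140 CPM at day 7, so that the injured sections of days 3 and 7 were 5.68-fold (5.39 to 5.99) and 3.92-fold (3.70 to 4.14) over day 0. Chrnd (ENSMUSG00000026251, chr1:87190597-87200070) was the only subunit higher in all 3 injured sections, with 2.51 CPM at day 0, 5.42 CPM at day 1, 22.5 CPM at day 3 and 8.32 CPM at day 7. Its day 3 level was 8.98-fold over day 0 (7.38 to 11.0). Chrnb1 (ENSMUSG00000041189, chr11:69784036-69795966) gave 39.6 CPM, 24.1 CPM, 39.6 CPM and 54.7 CPM in the same order, and its log2 ratio at day 3 was 0.00 (-0.09 to 0.09). At day 7 its log2 ratio of 0.47 turned sign under 2 other scalings (-0.14 and -0.17).

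Set against Chrna1, the subunit mix of the receptor's transcripts can be followed without scaling. For every 100 Chrna1 UMIs there were 57.5 Chrne UMIs at day 0, 21.7 at day 1, only 3.85 by day 3 (3.49 to 4.23), and 16.4 in the last section. Chrng gave 2.48, 1.23, 12.2 and 8.23 UMIs per 100 in the same sections. Chrnb1 stood at 111 and 99.8 at days 0 and 1, 19.5 at day 3 and 39.0 at day 7. Chrnd stayed within a narrower range, at 7.00, 22.4, 11.1 and 5.93, with its highest value at day 1. Relative to alpha, beta and epsilon were thus lower at day 3 than at day 0, and gamma and delta were higher.

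Among the organisers, Musk (ENSMUSG00000057280, chr4:58285729-58377848), the kinase that starts receptor clustering, gave 1.07 CPM at day 0 (47 UMIs), 5.25 CPM at day 1 (88 UMIs), 5.93 CPM at day 3 (333 UMIs) and 3.27 CPM at day 7 (137 UMIs). All 3 injured sections lay above day 0, by 4.90-fold (3.40 to 7.13), 5.54-fold (4.07 to 7.69) and 3.06-fold (2.18 to 4.35), the last just under 2-fold with DESeq2 factors (0.97 on the log2 scale). Musk and Chrnd were the members already above day 0 by 2-fold at day 1, though Chrnd, at 2.16-fold (1.62 to 2.88), fell under that line with 3 other scalings. Rapsn (ENSMUSG00000002104, chr2:91035472-91045729), the scaffold beneath the receptor, gave 16.7, 20.4, 35.0 and 24.98 CPM, a 2.09-fold difference at day 3 that was under 2-fold with TMM factors, DESeq2 factors and the reduced total (log2 ratios of 0.51, 0.50 and 0.68). Lrp4 (ENSMUSG00000027253, chr2:91457456-91513901), the agrin receptor, gave 2.32, 0.954, 3.28 and 3.11 CPM, with only 16 UMIs at day 1, and its ratios to day 0, at 0.50 and then 0.42 on the log2 scale for days 3 and 7, turned sign with TMM or DESeq2 factors.

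The esterase genes were lowest at day 1 and nearer the uninjured level afterwards. Ache (ENSMUSG00000023328, chr5:137288247-137294466), which hydrolyses acetylcholine, gave 27.8 CPM at day 0, 7.81 CPM at day 1, 26.7 CPM at day 3 and 37.2 CPM at day 7. Colq (ENSMUSG00000057606, chr14:31523082-31577863), the collagen tail that holds it in the synaptic cleft, gave 12.1, 3.75, 11.4 and 9.92 CPM. At day 1 they stood 3.56-fold and 3.22-fold below day 0. The Colq log2 ratio at day 7 was -0.29 and turned to 0.47 when scaled to the adult myofibre list, and that of Ache, 0.42, turned to -0.18 with TMM factors.

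All 10 genes had at least 10 UMIs over the sections and entered each comparison. At day 1, 2 members stood at least 2-fold above day 0 (Musk and Chrnd), where 17.8% of the 16023 genes compared did, and 5 stood at least 2-fold below (Chrne, Chrng, Colq, Ache and Lrp4), where 10.7% did. Of the 12 adult myofibre genes, 6 were also at least 2-fold lower at day 1. Scaled to that list in place of the total, 1 member was lower. The part of the myofibre shift in the 5 lower members was not tested, and their count is not read as a result about the family. At day 3, 5 members were higher (Chrna1, Chrnd, Chrng, Musk and Rapsn) against 32.4% of 17001 genes, and Chrne alone was lower against 8.66%. At day 7, 4 were higher (Chrna1, Chrnd, Chrng and Musk), near the 32.8% of 16827 genes, and none was lower, against 2.18%. Day 7 against day 3 had 1 member higher (Chrne), with 16.6% of genes, and 2 lower (Chrnd and Chrng), with 11.5%. The median log2 ratio of the members was -0.999, 0.78 and 0.52 at days 1, 3 and 7 against day 0, beside 0.19, 0.56 and 0.65 over all genes compared. These 3 comparisons share the day 0 section. With these backgrounds at days 3 and 7, the counts of higher members there are no result about the family, and the sizes of the differences and their places in the tissue are what was described.

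Chrng, Chrna1 and Chrne also differed in how their UMIs spread over the spots. In the uninjured section the 21 spots (1% of all) with the most Chrne UMIs held 27.6% of them, and the densest spot had 25 UMIs. The corresponding share was 29.9% for Colq and 20.1% for Chrna1, whose densest spot had 39 UMIs, but 5.82% for Chrnb1 and 9.13% for Rapsn, which had at most 7 and 5 UMIs in a spot. Chrng never exceeded 1 UMI in a spot at day 0 or day 1, which gives no sign of dense spots at those days. At day 3 its densest spot had 13 UMIs and 55 spots had 5 or more, and at day 7 the densest had 16 and 20 spots had 5 or more. For Chrna1 the top 1% of spots held 8.71% at day 3 and 13.4% at day 7, beside 20.1% in the uninjured section. Such a share falls as a gene's UMIs rise, and Chrna1 had 1571, 11411 and 5868 UMIs at days 0, 3 and 7. The counts were not made equal, so no change of concentration between days is read from these shares.

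The share of spots that held a gene was compared at equal depth. Thinned to 2000 UMIs per spot, with 17, 513, 9 and 84 shallower spots left out at days 0, 1, 3 and 7, Chrna1 was found in 6.23% (5.22 to 7.34), 3.997% (3.21 to 4.91), 24.2% (22.7 to 25.8) and 19.3% (17.9 to 20.8) of spots. Chrng was found in 0.239% (0.078 to 0.557), 0.047% (0.0012 to 0.258), 3.33% (2.70 to 4.01) and 1.33% (0.942 to 1.80). Chrne gave 3.64% (2.88 to 4.53), 1.00% (0.641 to 1.54), 1.55% (1.15 to 2.06) and 4.02% (3.36 to 4.81), so that days 0 and 7 overlapped. Unthinned, the shares at days 0, 1, 3 and 7 were 34.0%, 10.4%, 69.0% and 57.3% for Chrna1, 1.85%, 0.187%, 23.1% and 8.18% for Chrng, and 20.4%, 2.17%, 7.96% and 16.9% for Chrne. Spots are no replicates, and free RNA can add to such shares. As a background, 554 spots of day 7 were taken that ranked among the 25% richest in cartilage genes and in neither muscle list. Cartilage does not build the receptor, but a spot can hold several cells and fibres were not excluded. The set is thus not a background free of receptor-making cells. Thinned alike, Chrna1 was found in 16.7% of them (13.6 to 20.1), Chrne in 3.34% (2.01 to 5.27) and Chrng in 0.618% (0.116 to 1.63), with a median depth of 14148.5 UMIs against 12119.5 in the whole section. The section's shares of all 3 genes at day 7 overlapped that background within their intervals and are not read as expression across the tissue. In the spots rich in regenerating myofibre genes the shares were 30.7% (27.4 to 34.2) for Chrna1, 5.03% (3.58 to 6.90) for Chrne and 3.99% (2.67 to 5.64) for Chrng, so that Chrna1 and Chrng exceeded the background there.

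**Figure D3:**
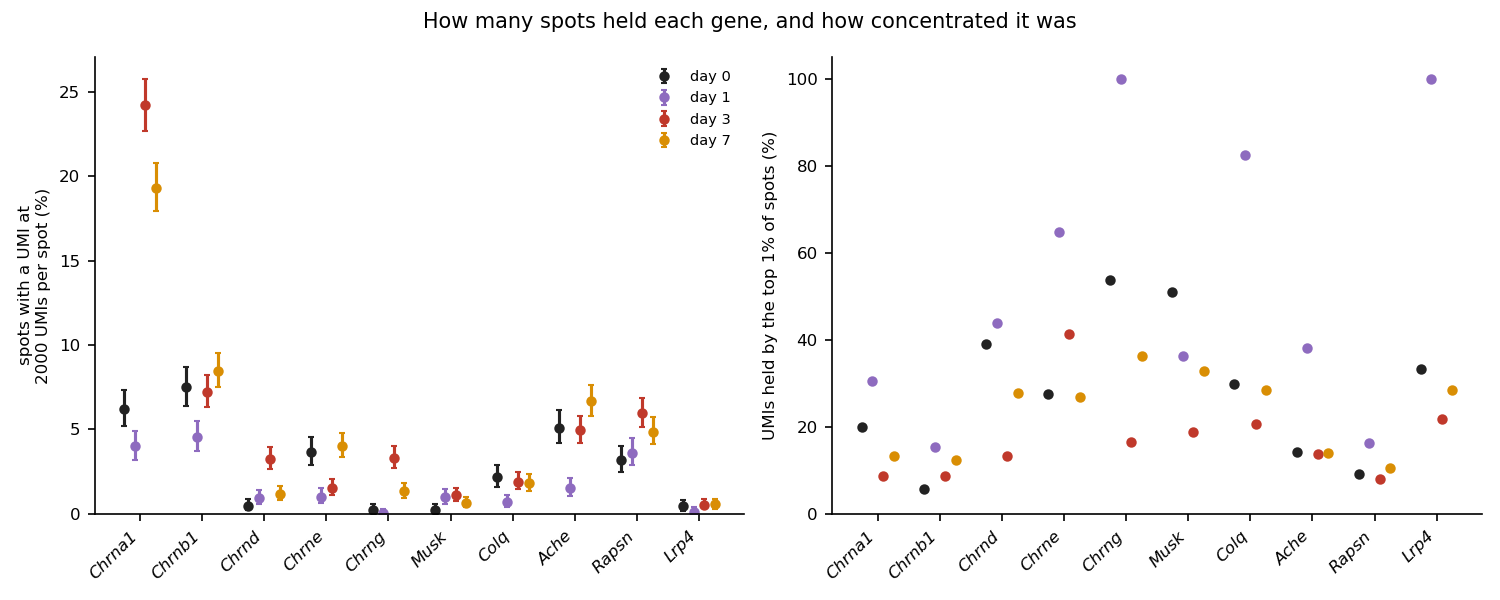
Left, percentage of spots with at least 1 UMI of each gene after thinning to 2000 UMIs per spot, with 95% intervals; right, percentage of a gene's UMIs held by the top 1% of spots, in each of the 4 sections (colours). Chrna1 went from 6.23% of spots at day 0 to 24.2% at day 3. Its top 1% of spots held 20.1% and then 8.71% of its UMIs, a share that falls as UMIs rise and is not compared between days. Points at 100% rest on 5 UMIs (Chrng) and 16 UMIs (Lrp4) at day 1.

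Where in the section the genes lay was described by the level in the 25% of spots richest in a gene list over the level in the other spots. In spots rich in regenerating myofibre genes, Chrng was 5.78 times as high at day 3 (5.10 to 6.56) and 11.9 times as high at day 7 (9.20 to 15.5), the highest ratio of the 10 genes in both sections. Chrnd followed with 3.57 (3.17 to 4.02) and 4.53 (3.60 to 5.75), and Chrna1 with 2.79 (2.69 to 2.90) and 2.59 (2.46 to 2.73). Chrne did not share this pattern, with 0.858 (0.698 to 1.05) at day 3 and 1.24 (1.09 to 1.42) at day 7. Colq was 2.50 times as high (2.13 to 2.93) at day 3 and 0.908 times (0.732 to 1.12) at day 7, and Chrnb1 1.45 times (1.33 to 1.58) and 2.70 times (2.48 to 2.93). The rich spots were deeper, with a median of 25955 against 13413.5 UMIs at day 3 and 15573.5 against 11317 at day 7, and 38.0% and 42.1% of them also ranked among the 25% richest in macrophage genes.

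Spots rich in Schwann cell genes (6 genes, Mbp, Prx, Sox10 and S100b among them, of the glia that wrap motor axons and cap the nerve ending) held the adult synaptic genes. In uninjured muscle Colq was 6.77 times as high there (5.63 to 8.16), Chrne 6.03 times (5.26 to 6.94), Chrna1 4.48 times (4.05 to 4.95), Chrnd 4.46 times (3.01 to 6.65) and Ache 2.21 times (1.97 to 2.48). Chrnb1 and Rapsn were not set apart, at 1.10 (0.987 to 1.23) and 1.08 (0.909 to 1.28). Chrne kept a high ratio after injury, 5.91 (4.81 to 7.28) at day 3 and 3.98 (3.50 to 4.53) at day 7, when Colq gave 1.70 (1.44 to 1.998) and 3.34 (2.74 to 4.07). The Chrna1 ratio was 1.30 (1.25 to 1.35) and 1.43 (1.35 to 1.52) at those days. Chrng, at 0.489 (0.149 to 1.26), 1.13 (1.00 to 1.27) and 0.631 (0.484 to 0.814) at days 0, 3 and 7, was not concentrated there, but with the upper 50% of spots its day 7 log2 ratio was 1.09. At day 1, 269 of the 667 Schwann-rich spots and 410 of the 667 regenerating-rich spots held no UMI of the list, so that those rankings are partly ties and are not read.

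**Figure D4:**
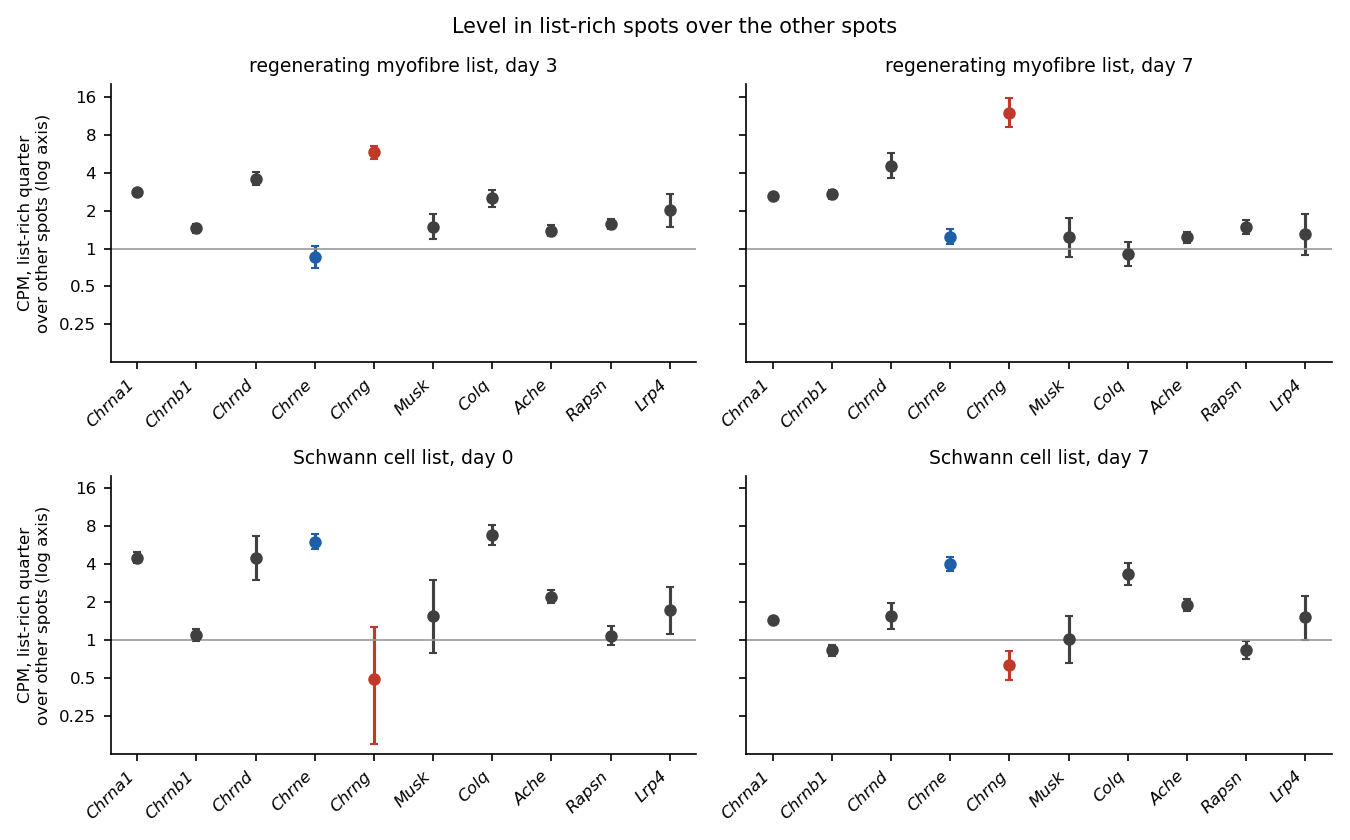
CPM in the 25% of spots richest in a gene list over CPM in the other spots (y axis, log scale, 1 marked) for each gene, with 95% counting intervals. Chrng (red) stood at 5.78 and 11.9 in the regenerating myofibre panels, and Chrne (blue) at 6.03 and 3.98 in the Schwann cell panels.

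Macrophage-rich and fibre-rich spots divided the 2 subunits as well. In the 25% of spots richest in macrophage genes, Chrne was at 0.122 times the level of the other spots at day 1 (0.015 to 0.455, on 2 UMIs), 0.265 times at day 3 (0.196 to 0.353) and 0.576 times at day 7 (0.493 to 0.671). Chrng was at 1.59 times (1.43 to 1.77) at day 3 and 3.29 times (2.73 to 3.97) at day 7. Of these macrophage-rich spots, 38.0% and 42.1% also ranked among the 25% richest in regenerating myofibre genes at those days. They were also deeper, with medians of 25003 against 13844.5 UMIs and 15807.5 against 11307, and the part of either in these ratios was not tested. In spots rich in adult myofibre genes the ratio of Chrng was 0.154 (0.106 to 0.216) at day 3 and 0.299 (0.206 to 0.422) at day 7. That of Chrne was 0.584 (0.485 to 0.699) in uninjured muscle and then above 1, at 1.67 (1.07 to 2.60), 1.37 (1.06 to 1.75) and 1.25 (1.07 to 1.45) at days 1, 3 and 7. In the chondrogenic-rich spots of day 7, Chrng was at 0.555 times (0.430 to 0.708) and Chrna1 at 0.804 times (0.755 to 0.855) the level elsewhere, and Chrne at 0.894 (0.768 to 1.04).

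In the uninjured section, members that shared spots were mainly pairs of Chrna1, Chrne, Colq and Ache. After thinning, Chrne and Colq shared spots 4.80 times (2.10 to 9.58) as often as their separate shares would give at day 0 and 4.82 times (2.22 to 8.51) at day 7. Chrna1 and Colq gave 3.80 (1.96 to 6.99), Chrna1 and Chrne 3.10 (1.77 to 5.21) and Chrne and Ache 2.68 (1.24 to 4.72) in the uninjured section. At day 7 the ratio of Chrna1 and Chrne was 1.77 (1.29 to 2.42) and that of Chrna1 and Chrng 2.31 (1.31 to 3.59), so that alpha shared spots with both. In that section Chrnb1 and Chrng gave 2.32 (1.04 to 4.74), and Chrnd and Chrne 3.11 (0.775 to 7.27). Chrnd and Chrng gave 2.30 (0.867 to 4.43) at day 3, and 2.21 with all UMIs. Rapsn, the scaffold, stood at 0.874 (0.101 to 3.00) with Chrne at day 0. Of the pairs with at least 1 spot expected, 12 of 15 were above 1 at day 0, 3 of 6 at day 1, 30 of 35 at day 3 and 28 of 31 at day 7, with medians of 1.27, 1.64, 1.28 and 1.38. Pairs of other genes were not counted in this way, so these counts are no result about the members.

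The genes whose place was most like that of each subunit were ranked in the section where the subunit's CPM was highest. They were compared by the UMIs in its spots over those expected from other spots of the same depth class. For Chrne the choice of day 7 hangs on the scaling. Its log2 ratio to day 0 was -0.44 with TMM factors, -0.47 with DESeq2 factors and -0.0955 with the reduced total. Chrne at day 7 (513 spots, 12002 genes ranked by the lower bound) was led by Col20a1 at 5.77 times (4.99 to 6.64), Crym at 4.95 (4.23 to 5.76), Etv5 at 3.75 (3.44 to 4.07), Ufsp1 at 3.60 (3.34 to 3.86) and Sfrp5 at 3.86 (3.31 to 4.47). Etv5 is an ETS transcription factor, and Ufsp1 lies 203 bases from Ache on chromosome 5. Colq ranked 7 at 3.38 (2.94 to 3.86), Ache ranked 13 at 2.30 (2.12 to 2.49) and Chrnd ranked 17 at 2.29 (1.95 to 2.67), while Lrp4 was at 1.12 (0.778 to 1.55). Chrng at day 3 (700 spots, 12165 genes) was led by Myh3, the embryonic myosin, at 3.85 (3.74 to 3.97), Smim6 at 4.21 (3.66 to 4.81), Myh8, the perinatal myosin, at 4.05 (3.59 to 4.55), and the fusion genes Mymk at 3.05 (2.94 to 3.17) and Mymx at 3.06 (2.92 to 3.21). Chrnd was at 2.19 (2.04 to 2.35), Chrna1 at 1.76 (1.72 to 1.80) and Chrne at 0.683 (0.553 to 0.835) in the Chrng spots of that day. In the Chrne spots of day 3, Chrng was at 1.03 (0.861 to 1.23), an interval that takes in 1.

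Both sets of spots can be compared within the day 7 section. Etv5 was at 3.75 times the expectation in Chrne spots and 1.48 (1.28 to 1.70) in Chrng spots, and Etv4 at 3.92 (3.24 to 4.71) and 1.11 (0.752 to 1.59). Among Schwann cell genes, Mbp, myelin basic protein, was at 1.77 (1.60 to 1.96) against 1.00 (0.839 to 1.19), and Sox10, a transcription factor of glia, at 3.63 (2.78 to 4.66) against 1.78 (1.16 to 2.61). Prx, a myelin scaffold protein, stood at 1.74 (1.35 to 2.20) and 1.26 (0.881 to 1.74), with overlapping intervals. S100b, of the same list, went the other way and was below the expectation in Chrne spots, at 0.79 (0.661 to 0.938). Myh3 was at 1.10 (1.03 to 1.17) in Chrne spots and 4.58 (4.38 to 4.80) in Chrng spots, and Mymx at 0.837 (0.682 to 1.02) and 4.33 (3.79 to 4.94). Chrnd, at 2.29 and 4.18 (3.58 to 4.85), and Chrna1, at 1.81 and 2.63 (2.51 to 2.74), were above the expectation in both, and each subunit's spots also held more of the other subunit than expected, as given above. In uninjured muscle the Chrne spots already held Etv5 at 4.81 (4.41 to 5.24), Etv4 at 4.82 (3.89 to 5.89), Ncam1 at 2.94 (2.45 to 3.50) and Colq at 5.70 (5.11 to 6.35), whereas Dok7 at 0.906 (0.784 to 1.04) and Gabpa at 1.08 (0.921 to 1.26) were not set apart.

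**Figure D5:**
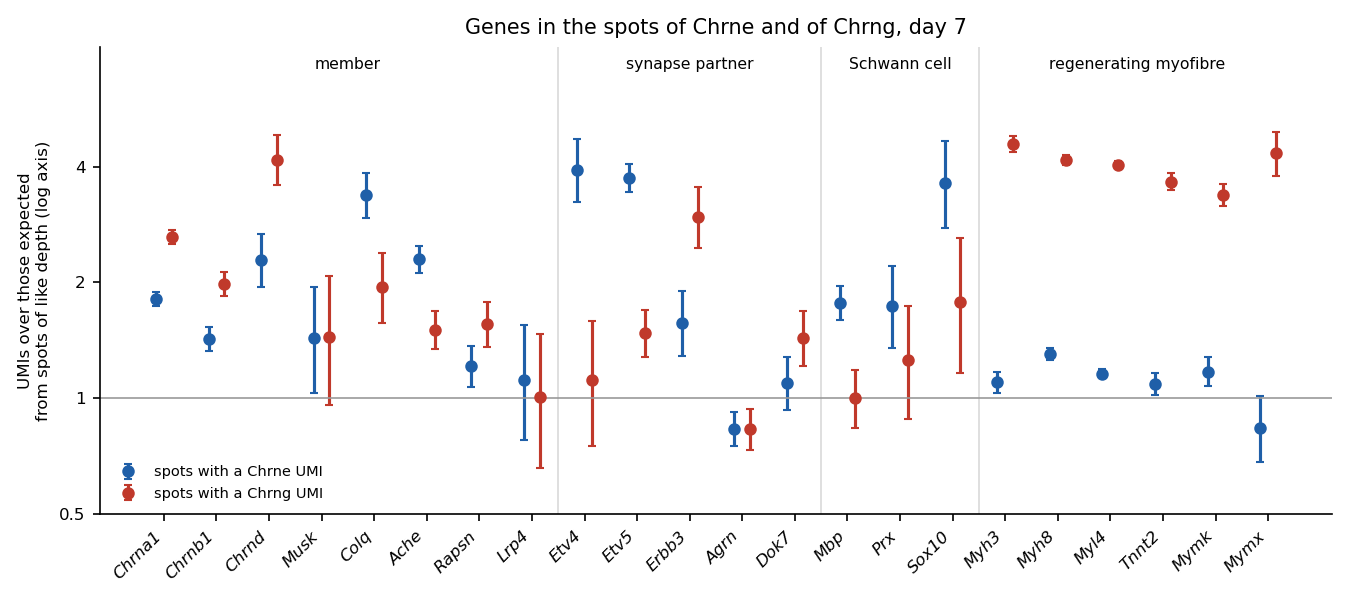
UMIs of each gene in spots with a Chrne UMI (blue) or a Chrng UMI (red) at day 7, over the UMIs expected from other spots of like depth (y axis, log scale, 1 marked), with 95% counting intervals. Etv4 and Etv5 stood at 3.92 and 3.75 in Chrne spots, and Myh3 and Mymx at 4.58 and 4.33 in Chrng spots. Of the Schwann cell list, Mbp, Prx and Sox10 are drawn and S100b is not.

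The wider junction pathway was read from 19 synapse partner genes. Of these, 17 could be compared at day 1, where none was 2-fold higher and 3 were lower (Agrn, Scn4a and Lamb2), and 18 at days 3 and 7, where 3 (Nrg1, Erbb3 and Col13a1) and 6 (these with Agrn, Erbb2 and Gfpt1) were higher and none lower. Over all genes 17.8%, 32.4% and 32.8% were higher at days 1, 3 and 7, so that the higher partners were fewer than or near that background and are no result about the list. Over all genes 10.7%, 8.66% and 2.18% were lower at these days, and with so few partners nothing is read from the 3 lower ones. Agrn, which encodes agrin, gave 21.1 CPM, 10.0 CPM, 12.1 CPM and 42.2 CPM at days 0, 1, 3 and 7. Nrg1, the neuregulin that signals through ErbB receptors, gave 0, 3, 155 and 14 UMIs in the 4 sections in turn. Erbb3 stood at 2.46, 2.38, 7.86 and 6.74 CPM. The ETS genes Etv4 and Etv5 stayed within 2-fold of day 0 throughout, at 3.58, 2.32, 5.61 and 5.19 CPM and at 19.6, 14.7, 15.9 and 26.2 CPM. The transmembrane collagen Col13a1 gave 0.456 CPM at day 0, 0.894 CPM at day 1, 2.25 CPM at day 3 and 1.58 CPM at day 7, highest where the fetal subunit was highest.

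A list of 7 genes known to respond to denervation (Myog, Runx1, Gadd45a, Hdac4, Hdac9, Dach2 and Ncam1) was read in the same way. Of these, 2 (Runx1 and Gadd45a) were at least 2-fold higher than day 0 at day 1, 3 at day 3 (Myog, Runx1 and Ncam1) and 4 at day 7 (Runx1, Hdac9, Dach2 and Ncam1), and none was lower. With 7 genes and the same backgrounds of 17.8%, 32.4% and 32.8%, nothing is read from these counts. Gadd45a, a stress-response gene, gave 48.3 CPM at day 0 and 162 CPM at day 1, the day when Chrng was on 5 UMIs, and then 61.6 and 68.9 CPM. Runx1 gave 4.01, 44.4, 93.1 and 47.7 CPM, and immune cells, which also express it, entered the tissue over the same days, with the macrophage list at 328, 1365, 6882 and 1712 CPM. Ncam1, an adhesion molecule of young and denervated fibres, gave 5.95, 5.48, 33.2 and 29.9 CPM. Myog, which encodes the E-box factor myogenin, gave 51.6, 31.5, 225 and 73.3 CPM, and the regenerating myofibre list summed to 36.1, 22.9, 510 and 724 CPM. The part of these genes' fibres and cells in the receptor values was not tested.

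Of the other cell types of the junction, motor axons were almost unseen: Chat, Slc18a3 and Syt2, defining genes of motor neurons, were at 0 UMIs in all 4 sections, and the motor axon list summed to between 7 and 150 UMIs. At 0 of 43871586 UMIs, with 3 UMIs taken as the limit that a count of 0 allows, the day 0 section allows up to 0.068 CPM. Slc5a7, the choline transporter, was at 0, 0, 8 and 81 UMIs at days 0, 1, 3 and 7. The cell bodies of these neurons lie in the spinal cord. The Schwann cell list summed to 124, 90.2, 43.9 and 129 CPM, lowest at day 3, and its part in the Chrne values was not tested. S100b, which cartilage cells also express, made 701 of its 5391 UMIs at day 7.

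Most receptor genes of other tissues had few UMIs, with Chrna9 and Chrna4 as exceptions in the uninjured section. Of the 16 other nicotinic and muscarinic receptor genes, 4 were at 0 in all sections, and the list summed to 246, 14, 46 and 100 UMIs. Chrna9 and Chrna4, subunits of receptors outside the neuromuscular junction, were the most counted in uninjured muscle, with 167 and 42 UMIs at day 0, 0 and 0 at day 1, 7 and 1 at day 3, and 12 and 18 at day 7.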

How the data were processed

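Spatial RNA libraries of 1 tibial muscle section per day were read from the matrices the authors deposited, whose values are UMI counts per gene and spot over tissue. Their headers name Space Ranger 1.2.0, the study's methods name another version and the labels describe Cell Ranger, so the version is unsettled; the submitters' processing notes name mm10. Sections were cryosections on 10x Visium arrays, and only spots under tissue were kept. Samples were grouped by the day in their titles. No columns of other samples were found (0).

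Each gene's UMIs were added up across a section and expressed per 1000000 of its UMIs (CPM). A gene under 3 UMIs in a section was entered at 3 in a ratio, so such a ratio is a bound on that floor; 3 UMIs are 0.068, 0.179, 0.053 and 0.072 CPM at days 0, 1, 3 and 7. Genes were counted from 10 UMIs in all sections together upwards, leaving out those at or under 3 UMIs in both sections of a comparison, a step added after seeing the data (counting them, the day 1 background of higher genes was 23.7% in place of 17.8%). Shares carry Clopper-Pearson intervals, ratios conditional binomial intervals and sums Poisson intervals, all 95% and for counting error only. Thinning to 2000 UMIs was computed exactly. The spot background in cartilage-rich spots was also added after seeing the data. Calculations were tested on simulated data.

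The 10 genes, the lists and the comparisons were chosen with earlier results of these data known. Named genes were the members, list genes past 2-fold first, and for Chrne and Chrng the 5 genes (not mitochondrial, at least 100 UMIs) with the highest lower bound in their spots; other genes named were chosen after their values were seen. Some list genes are not reported here; the denervation list was counted without one, and the Schwann cell list was kept whole. Python 3.11.15 with SciPy 1.17.1, R 4.3.3 with edgeR 4.0.16 and DESeq2 1.42.0 (scaling factors only, no test) were used. Coordinates and promoter sequences are from RefSeq on GRCm38.p6; RefSeq genes overlap Chrna1, Chrne, Ache and Rapsn, and reads in those overlaps are uncertain.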

Additional observations from a re-analysis of the deposited data

How the results depend on the processing

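No replicate section was available, so no alternative could leave one out, and counting intervals do not cover differences between mice or cuts. Against the section total, log2 ratios to day 0 shifted at days 1, 3 and 7 by -0.19, -0.55 and -0.61 with edgeR's TMM factors, by -0.19, -0.56 and -0.64 with DESeq2 size factors, by -0.16, -0.38 and -0.26 with a total without mitochondrial, haemoglobin and adult myofibre genes, and by 0.88, 1.59 and 0.75 with the adult myofibre list as the total. At day 1, 1 member in place of 2 was higher with TMM, DESeq2 or the reduced total. With the myofibre list as the total, 1 member was lower at day 1, 9 were higher and 0 lower at day 3, 8 were higher at day 7, and 0 were higher and 6 lower at day 7 against day 3; the reduced total gave 1 lower there. The Chrng share at day 0 was 8.32% with at most 1 UMI counted per spot and gene, and the other Chrng shares moved by less than their intervals in each alternative run.

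Log2 ratios that changed sign with the myofibre list as the total were those of Chrna1 (0.31) and Chrnb1 (0.17) at day 1, Chrne at day 3 (0.19), Colq at day 7 (0.47), and Chrnb1 (-0.37) and Ache (-0.35) at day 7 against day 3. With TMM and DESeq2 factors in turn, day 7 against day 0 changed sign for Chrnb1 (-0.14 and -0.17), Chrne (-0.44 and -0.47), Ache (-0.18 and -0.21), Rapsn (-0.0296 and -0.0594) and Lrp4 (-0.19 and -0.22), as did Lrp4 at day 3 (-0.0554 and -0.0663); the reduced total gave -0.0955 for Chrne at day 7. For spots rich in a list, the upper 50% of spots changed the sign of the log2 ratio for Musk with adult myofibre genes at day 1 (-0.10) and Colq with macrophage genes at day 3 (0.45). It did so too for Chrnb1 (0.19) and Chrng (1.09) with Schwann cell genes at day 7. The reduced total did so for Rapsn with macrophage genes at day 3 (-0.13). Of 169 such ratios, another 45 moved beyond their intervals with the upper 50% of spots, and another 32 with the reduced total, so their sizes depend on these choices. The cause was not tested beyond the shift each scaling applies to all genes. Shares of spots followed the thinning depth. Of the 87 pair ratios, 87 moved by less than their intervals at both 1000 and 4000 UMIs, and 2 moved further with all UMIs. Many of these intervals are wide, so that staying within them says little.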
